A study of Mus musculus with 6 samples.

Results

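The miR-29 and miR-101 families were represented by 9 mature arms among the 1915 mature miRNAs listed in each library. They were 5 arms of miR-29a, miR-29b and miR-29c and 4 arms of miR-101a and miR-101b, matched by name with no cut on any value. The families were chosen by their AU-rich sequence and their known targets, with male to female fold changes of these data, that of miR-101a-3p among them, already in view. All comparisons of these arms between the sexes are therefore descriptions of these libraries. No p-value of an arm is printed, and whether an arm passed a threshold set over all miRNAs is given as a description too.

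Small RNA was sequenced from whole brains of wild-type C57BL/6 embryos at E15.5, in 3 libraries of each sex and 6 in all. Embryos were sexed by the presence or absence of testicular cords, and each library pooled RNA of 2 to 3 embryos of 1 sex, so an individual embryo cannot be seen. No treatment or transgene was used in either sex. The libraries held 14802675 to 59362011 miRNA reads, and female library 2 stood apart with the most reads and the fewest miRNAs detected, 660 against 790 to 915 in the other libraries.

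A microRNA is cut from a hairpin precursor as a duplex, and usually 1 of its arms (the guide) is kept by the silencing complex while the other is degraded. Bases 2 to 8 of the guide, the seed, largely set which messenger RNAs are recognised. miR-29 is best known for targeting collagens and Dnmt3a and Dnmt3b, which place new DNA methylation marks, and in brain it rises as neurons mature. miR-101 is best known for targeting Ezh2, the catalytic subunit of the Polycomb repressive complex that methylates histones. Messenger RNAs were not measured in the files used here.

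The guide arms are shown first because small differences in sequence divide these families into 3 seeds. The mature sequences of all 9 arms were found in RefSeq (GRCm38.p6) and each was matched letter for letter to mm9 inside its precursor. Capitals mark the seed, and the species prefix mmu is left out further on where a name repeats.
mmu-miR-29a-3p: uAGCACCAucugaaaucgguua
mmu-miR-29b-3p: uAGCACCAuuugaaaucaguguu
mmu-miR-29c-3p: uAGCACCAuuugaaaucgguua
mmu-miR-101a-3p: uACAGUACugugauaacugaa
mmu-miR-101b-3p: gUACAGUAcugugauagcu

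The 3 miR-29 guides share the seed AGCACCA, which no other miRNA in the RefSeq table used here carried. Counted from the 5′ end of miR-29a-3p, miR-29c-3p differs from it only by C10U. miR-29b-3p differs from miR-29a-3p by C10U, G18A, U21G and A22U. A miR-29c read therefore differs from a miR-29a read at a lone internal base, and how reads matching both were counted is not given in the sources used here.

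The miR-101 guides do not share a seed as annotated. miR-101b-3p starts 1 base earlier than miR-101a-3p, so its seed is UACAGUA and that of miR-101a-3p is ACAGUAC. With that shift removed, they differ at 1 aligned base, A16G by the numbering of miR-101a-3p. miR-101b-3p is annotated with 19 bases and miR-101a-3p with 21.

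The passenger arms are shown because they are the less abundant products from the same hairpins, with miR-29c as the exception described further on.
mmu-miR-29a-5p: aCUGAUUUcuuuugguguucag
mmu-miR-29c-5p: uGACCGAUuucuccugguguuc
mmu-miR-101a-5p: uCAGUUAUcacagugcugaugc
mmu-miR-101b-5p: uCGGUUAUcaugguaccgaugcu

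In mm9 (NCBIM37), with the GENCODE vM1 annotation, the miR-29 precursors lie in a pair of clusters. Mir29a (chr6:31012660-31012747) and Mir29b-1 (chr6:31013017-31013097) are 269 bases apart on the reverse strand and overlap no other annotated gene. Mir29b-2 (chr1:196863234-196863314) and Mir29c (chr1:196863741-196863828) are 426 bases apart on the forward strand, within an exon of the long non-coding RNA A330023F24Rik. Both Mir29b precursors give the same miR-29b-3p, so its reads cannot be placed at either locus.

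Mir101a (chr4:101019550-101019632, reverse strand) lies within an exon of the non-coding transcript E130102H24Rik. Mir101b (chr19:29209769-29209865, forward strand) lies in an intron of the protein-coding gene Rcl1, a ribosomal RNA processing factor. None of the 6 precursors lies on a sex chromosome.

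Levels are given as counts-per-million (CPM) of the library total, where 1 read is 1 count whatever the length of the miRNA, and the 9 arms are 19 to 23 bases long. Together the 9 arms made up 0.0594% to 0.232% of the reads of a library. Of the 9, 8 had at least 1 read, the same 8 had the 10 reads in all that the male against female fit required, and 5 had at least 10 reads in every library. The order by mean level was miR-101a-3p, miR-101b-3p, miR-29a-3p, miR-29c-3p, miR-29c-5p, miR-29b-3p, miR-29a-5p and miR-101a-5p, with miR-101b-5p at 0 reads.

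**Figure D1:**
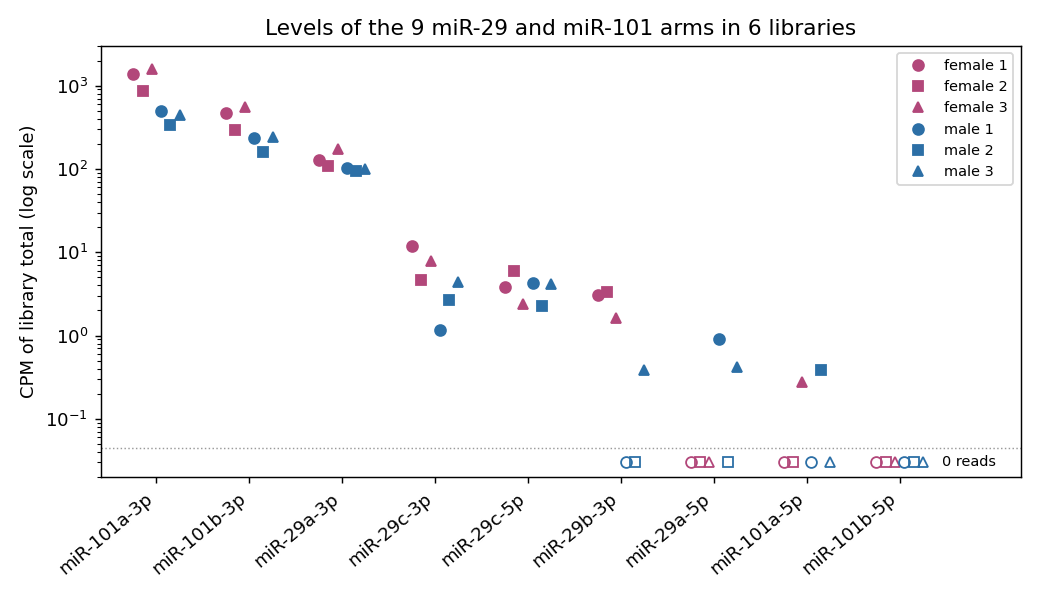
The plot gives the CPM of each arm (y axis, log scale) in each of the 3 female and 3 male libraries, with arms ordered by mean level and open symbols at the bottom for 0 reads. The 5 3p arms are each higher in every female library than in every male library, while the 5p arms overlap or are near 0.

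mmu-miR-101a-3p was the most abundant of the 9 arms and ranked 106 among all miRNAs by mean CPM. Female libraries 1 to 3 held 1366.5, 858.9 and 1583.3 CPM, and male libraries 1 to 3 held 495.3, 334.1 and 447.3 CPM. The lowest female library lay above the highest male library, and female library 2 was the lowest of the females. Females averaged 1269.6 ± 372 CPM (SD, n = 3) and males averaged 425.6 ± 82.8 CPM (SD, n = 3).

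mmu-miR-101b-3p, the guide of the second miR-101 gene, ranked 158 by mean CPM. Female libraries 1 to 3 held 464.4, 289.9 and 551.0 CPM, and male libraries 1 to 3 held 237.0, 161.8 and 240.8 CPM. The sexes did not overlap, and the libraries stood in nearly the same order as for miR-101a-3p. Females averaged 435.1 ± 133 CPM (SD, n = 3) and males averaged 213.2 ± 44.6 CPM (SD, n = 3).

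mmu-miR-29a-3p carried most of the miR-29 guide reads and ranked 238. Its level in female libraries 1 to 3 was 129.8, 108.0 and 172.9 CPM, and that in male libraries 1 to 3 was 102.9, 93.2 and 99.6 CPM. The sexes did not overlap, but female library 2 lay close above male library 1. Females averaged 136.9 ± 33.0 CPM (SD, n = 3) and males averaged 98.6 ± 4.92 CPM (SD, n = 3), so the spread lay mostly among the females.

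mmu-miR-29c-3p has the same seed and ranked 503. Female libraries 1 to 3 held 11.8, 4.68 and 7.88 CPM, and male libraries 1 to 3 held 1.18, 2.66 and 4.36 CPM. These levels rested on 175, 278 and 282 reads in females and 22, 117 and 103 reads in males. Female library 2 and male library 3 were nearly level, and male library 1 was the lowest.

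mmu-miR-29b-3p was the rarest guide, with 46, 200 and 58 reads in the female libraries, against 0, 0 and 9 reads in the male libraries, in the order 1 to 3. The female libraries held 1.62 to 3.37 CPM. In male libraries 1 and 2 a count of 0 allows up to 3 reads, which is 0.161 and 0.0683 CPM, and male library 3 held 0.381 CPM. All 3 male values and limits lay below the lowest female value. No molecular identifiers were named in the protocol, so such limits cover counting error only.

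The passenger arms gave few reads or none. miR-29a-5p had 17 and 10 reads in male libraries 1 and 3 and 0 in the other 4 libraries. miR-101a-5p had 10 reads in female library 3 and 17 in male library 2, and 0 in the others. miR-101b-5p had 0 reads in every library, which allows up to 0.0505 to 0.203 CPM, so it was not detectable at this depth. With positive values in 2 libraries each, no fold change is given for miR-29a-5p or miR-101a-5p.

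The exception was mmu-miR-29c-5p, whose 56 to 354 reads per library were of the same order as those of its guide. Female libraries 1 to 3 held 3.78, 5.96 and 2.40 CPM, and male libraries 1 to 3 held 4.28, 2.25 and 4.10 CPM. The sexes overlapped, and female libraries 2 and 3 were the highest and nearly the lowest of the 6. At its mean level of 3.80 CPM it lay next to miR-29c-3p at 5.43 CPM.

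Ratios within a library show the order of neighbours free of any scaling. miR-101a-3p exceeded miR-101b-3p in 6 of 6 libraries, by a log2 ratio of 1.27 ± 0.31 (SD, n = 6), and miR-101b-3p exceeded miR-29a-3p in 6 of 6, by 1.37 ± 0.37 (SD, n = 6). miR-29a-3p exceeded miR-29c-3p in 6 of 6 by 4.75 ± 0.98 (SD, n = 6). miR-29c-3p and miR-29c-5p did not differ beyond their spread, with a log2 ratio of 0.25 ± 1.33 (SD, n = 6) that was above 0 in 4 of 6 libraries. That mean turned below 0 without female library 1 (-0.031) or without female library 3 (-0.045). miR-29c-5p exceeded miR-29b-3p in 6 of 6 libraries, by 3.33 ± 3.40 (SD, n = 6), with 0.56 ± 0.27 in females and 6.11 ± 2.39 in males (SD, n = 3 each), where few or no miR-29b-3p reads were found. The 2 arms below miR-29b-3p cannot be ordered, since each had reads in only 2 libraries.

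The arms of 1 hairpin thus differed widely in balance. With 0.5 reads added to each count, miR-29a-3p exceeded its 5p arm by a log2 ratio of 6.78 to 13.65 and miR-101a-3p exceeded its 5p arm by 9.71 to 16.64, where most values are set by 5p counts of 0. For miR-29c the reads of the 3p arm per read of the 5p arm were 3.13, 0.785 and 3.28 in female libraries 1 to 3. They were 0.275, 1.18 and 1.06 in male libraries 1 to 3. Male library 1 and female library 2 had more reads of the 5p arm, so neither arm was the more abundant throughout.

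Shares within each family differed between libraries in another way. miR-101b-3p gave 0.340, 0.338 and 0.348 reads per read of miR-101a-3p in female libraries 1 to 3. In male libraries 1 to 3 it gave 0.479, 0.484 and 0.538. The female values were almost equal, including that of female library 2, and all male values lay above them. Expressed as the share of miR-101a-3p in the sum of both guides, females averaged 74.5% ± 0.305 (SD, n = 3) and males 66.7% ± 1.45 (SD, n = 3). miR-101a-3p and miR-101b-3p differ in base composition as well as in locus, with 33.3% and 42.1% GC.

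Within the miR-29 guides, miR-29a-3p held 89.7%, 93.1% and 94.8% of the reads in female libraries 1 to 3. It held 98.9%, 97.2% and 95.5% in male libraries 1 to 3. The sexes did not overlap, though female library 3 and male library 3 were close. The reads of miR-29c-3p per read of miR-29a-3p were 0.0911, 0.0434 and 0.0456 in females and 0.0114, 0.0286 and 0.0438 in males. Here male library 3 overlapped the females. The ratio thus ranged from 0.0114 to 0.0911, and its low end rested on 22 reads of miR-29c-3p in male library 1. Whether reads of miR-29a-3p were counted as miR-29c-3p, from which it differs at 1 base, was not tested.

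Between the families, the summed miR-101 guides exceeded the summed miR-29 guides in every library. The ratio was 12.6, 9.90 and 11.7 in female libraries 1 to 3. In male libraries 1 to 3 it was 7.03, 5.17 and 6.60. On the log2 scale females averaged 3.51 ± 0.18 (SD, n = 3) and males 2.64 ± 0.23 (SD, n = 3), a difference of -0.87, males minus females, that lay between -0.97 and -0.74 with any library left out.

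**Figure D2:**
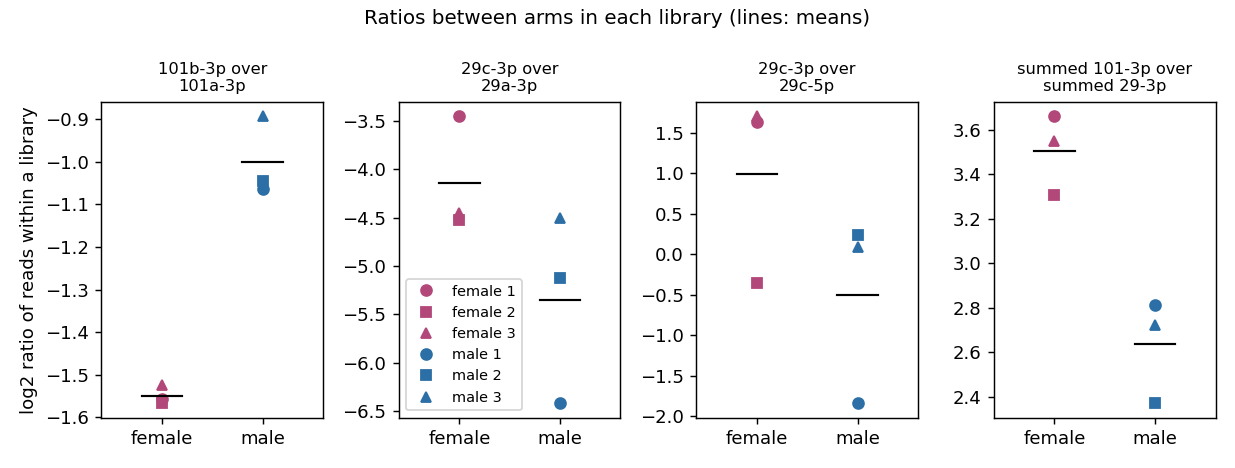
Each panel plots the log2 ratio of reads between arms within a library (y axis) for the 3 female and 3 male libraries, with a line at the mean of each sex. The ratio of miR-101b-3p to miR-101a-3p separates the sexes with little spread among females, while the ratio of miR-29c-3p to miR-29c-5p overlaps.

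The comparison between male and female brains was fitted for all miRNAs with edgeR's quasi-likelihood test, with log2 fold changes given as male over female. Of the 1120 miRNAs tested, 95 passed an adjusted p threshold of 0.05, or 8.48%, with 5.27% lower and 3.21% higher in males. Of the 9 arms, 2 passed it, miR-101a-3p and miR-101b-3p, both lower in males. Since these values were known when the arms were listed, nothing is read from the count. In CPM, the sexes did not overlap for 23.9% of the miRNAs tested, and for 8.57% all 3 male libraries lay below all 3 female libraries. The arms with that order were the 5 guides. Where reads averaged 100 or more, a cut that miR-29b-3p did not reach, 88 of 553 tested had it. No passenger arm had that order, which needs reads in all 3 female libraries. Only miR-29c-5p could have shown it, since miR-29a-5p and miR-101a-5p had reads in 2 libraries each and miR-101b-5p in 0.

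The log2 fold change was -1.70 (standard error 0.21) for miR-101a-3p, or 3.25-fold higher in females. For miR-101b-3p it was -1.15 (standard error 0.22), or 2.22-fold higher in females. miR-101a-3p kept its call in all 17 alternative fits, but its log2 fold change ranged from -1.88 without female library 2 to -0.96 with an offset for GC content and that library also left out, a fit chosen after seeing the data. miR-101b-3p kept it in 16 and lost it without male library 1, where its log2 fold change was -1.17. All these fits reuse libraries whose fold changes were already known, so kept calls add no separate support.

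The miR-29 guides did not pass the threshold in the fit reported here. The log2 fold change was -0.59 (standard error 0.23) for miR-29a-3p and -1.64 (standard error 0.93) for miR-29c-3p. For miR-29b-3p it was -4.51 (standard error 2.30), a value that depends on how the fit treats the counts of 0 in 2 male libraries. It was -9.57 without male library 3, the male library with reads, -7.06 with the replicate number as a block and -3.41 with the GC offset and without female library 2. Without female library 2, miR-29a-3p at -0.69 and miR-29c-3p at -1.88 both passed. With that library left out and the GC offset added, neither passed, at -0.23 and -1.15. miR-29a-3p also passed in both fits with 1 RUVr factor, an estimate of unwanted variation taken from the residuals. Of these 2 fits, miR-29b-3p passed in that with DESeq2. The authors compared the sexes with DESeq2 and RUVr, but the number of factors is not given.

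For the passenger arm miR-29c-5p the value was -0.37 (standard error 1.07), which turned to 0.11 without female library 2. The median log2 fold change over the 8 arms tested was -0.87, against -0.02 over all 1120 miRNAs tested, of which the middle 50% lay between -0.89 and 0.89. The 8 include miR-29a-5p and miR-101a-5p, whose fitted values were above 0 and rest on 27 reads each. Over the 6 arms with a mean of at least 20 reads, a cut not applied to the 1120, the median was -1.40.

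**Figure D3:**
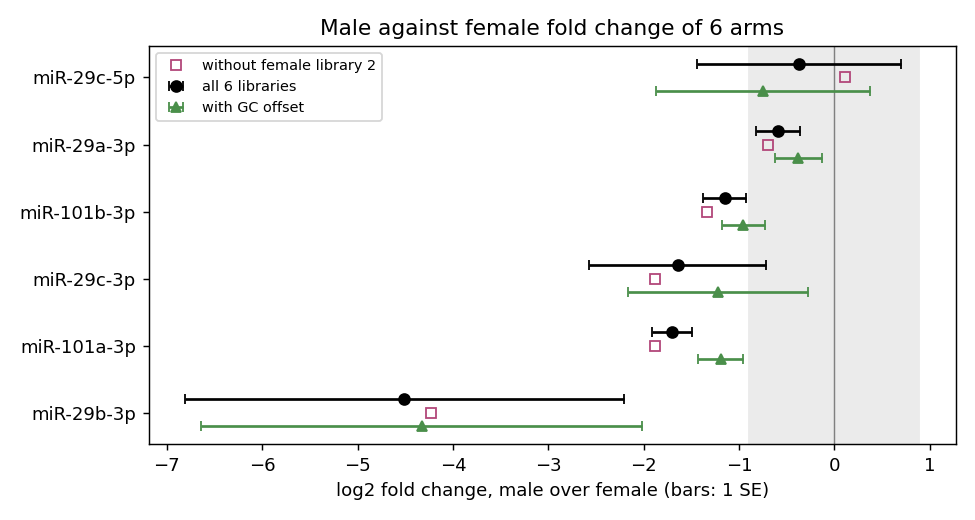
Points give the log2 fold change of male over female (x axis) for 6 arms in edgeR's fit, with bars of 1 standard error, beside the fit without female library 2 and the fit with an offset for GC content. The grey band is the middle 50% of all 1120 miRNAs, from -0.89 to 0.89, and only miR-29c-5p has a point right of 0.

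AU-rich sequence was among the reasons for choosing these families, and the fold change moved with GC content across all miRNAs. Of the miRNAs tested, 951 had a RefSeq mature sequence, or 84.9%. Among the 474 of these with a mean of at least 100 reads, Spearman's rho between fold change and GC content was 0.41 across miRNAs, which are not independent replicates and share the same 6 libraries. The median log2 fold change was -0.79 for the 30 miRNAs with above 30% and up to 35% GC, the bin that holds miR-101a-3p. It was -0.77 for the 47 with above 35% and up to 40%, which holds miR-29c-3p at 36.4%. It was -0.37 for the 66 with above 40% and up to 45%, which holds miR-101b-3p at 42.1% and miR-29a-3p at 40.9%. From 50% GC upward the medians lay between 0.20 and 0.27.

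With an offset for GC content fitted in each library, the log2 fold change became -1.19 for miR-101a-3p, -0.96 for miR-101b-3p, -0.38 for miR-29a-3p and -1.22 for miR-29c-3p. The direction stayed for all 6 arms with a fold change, and the same 2 arms passed the threshold. The offset also moved the median log2 fold change of all 1120 miRNAs tested from -0.02 to -0.19. In the bin that holds miR-29a-3p and miR-101b-3p the median with the offset was -0.17, so the sign alone says little for miR-29a-3p. The gap between miR-101a-3p and miR-101b-3p narrowed from -1.70 against -1.15 to -1.19 against -0.96. With female library 2 also left out there was no such gap, at -0.955 for miR-101a-3p and -0.963 for miR-101b-3p. What part base composition has in these differences was not tested.

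**Figure D4:**
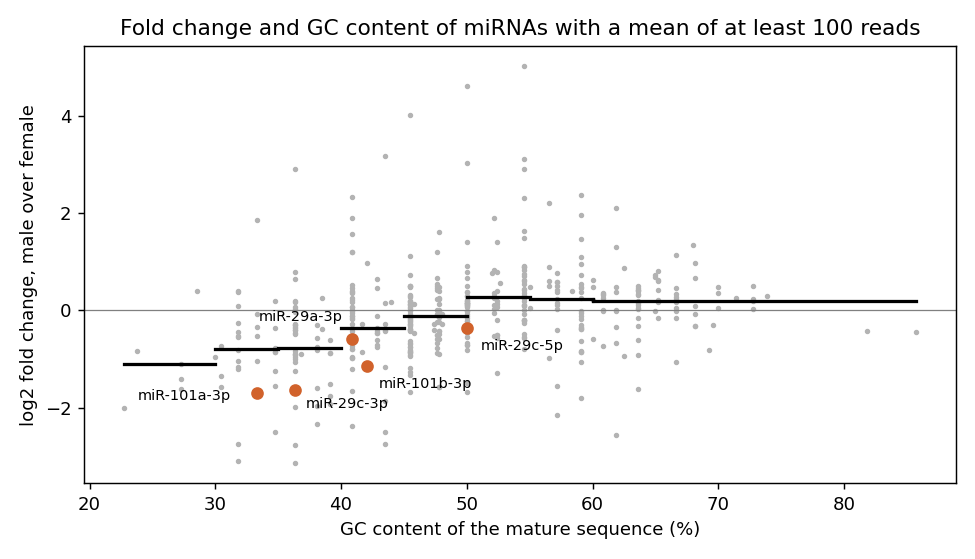
Each grey point is 1 of 474 miRNAs, by the GC content of its mature sequence (x axis, percent) and its log2 fold change of male over female (y axis), and black lines are medians in bins of GC content. Orange points mark the 5 arms with a mean of at least 100 reads, which all lie below the median of their bin.

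miR-1264-5p had the profile most like that of miR-101a-3p among the 548 miRNAs outside the list with a mean of at least 100 reads. That miRNA had a mean of only 7.73 CPM, and its log2 fold change of -1.56 had a standard error of 0.72. Likeness was the root mean square difference of log2 CPM over the 6 libraries, each miRNA centred on its own mean, and was 0.10 for miR-1264-5p against a median of 0.98. Next came miR-137-3p (0.19), which is enriched in neurons, miR-376c-3p (0.21), a miRNA of the imprinted Dlk1-Dio3 region, miR-340-5p (0.22) and miR-872-5p (0.24). miR-101b-3p was at 0.28, the tenth of 552 when the other arms were included. The log2 fold changes of the 5, male over female, lay between -1.59 and -1.42. Likeness was measured over the same 6 libraries, so folds near that of miR-101a-3p follow from the choice.

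The nearest profiles to miR-29a-3p were those of miR-708-5p (0.09), miR-181c-5p (0.10), miR-30c-5p (0.11), miR-143-3p (0.11) and miR-434-5p (0.12), against a median of 0.54. Their log2 fold changes lay between -0.62 and -0.40, and folds near that of miR-29a-3p again follow from how they were chosen. Of its own family, miR-29c-3p was at 0.87, place 451 of 552, and miR-29c-5p at 0.64, place 353, while the other miR-29 arms had too few reads for this comparison. Of the other family, miR-101b-3p was at 0.34, place 134, and miR-101a-3p at 0.58, place 313.

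**Figure D5:**
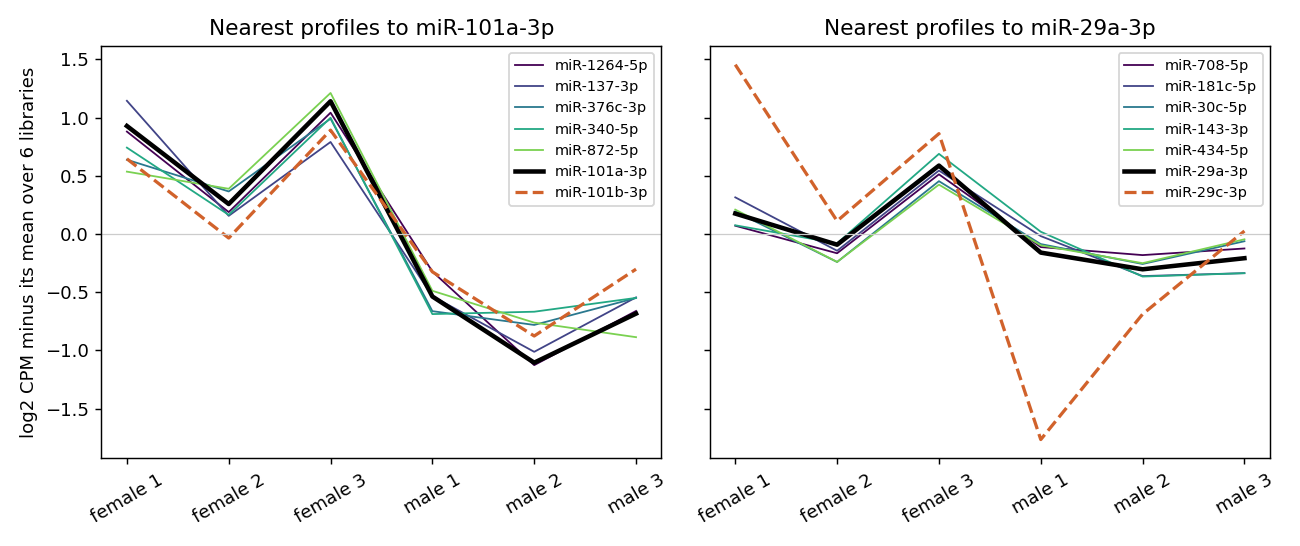
Lines join the log2 CPM of a miRNA minus its mean over the 6 libraries (y axis) for miR-101a-3p and for miR-29a-3p (black), their 5 nearest miRNAs and a family member (dashed). miR-101b-3p lies close to miR-101a-3p, at 0.28, whereas miR-29c-3p falls far below miR-29a-3p in male library 1.

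The files also list 3 further arms of these families. miR-101c, whose 19 bases are identical to bases 2 to 20 of miR-101a-3p, had 112 to 352 reads per library, or 0.00606 to 0.0165 reads per read of miR-101a-3p. The sexes overlapped in its CPM. Since any read of it also matches miR-101a-3p, its reads cannot be told apart from shortened miR-101a-3p. miR-29b-2-5p had 0 reads in female library 2 and 31 to 99 in the others, and miR-29b-1-5p had 23 and 8 reads in male libraries 1 and 2 and 0 in the rest. None of the 3 passed the threshold.

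Other miRNAs known to target Dnmt genes or Ezh2 were taken as a list of 12, among them let-7, miR-26, miR-124 and miR-148 members. In the fit across all miRNAs, 1 of the 12 was higher and 1 lower in males, against 3.21% higher and 5.27% lower over all miRNAs tested. miR-214-3p had the highest log2 fold change, 2.38 (standard error 0.33), and miR-138-5p the lowest, -0.99 (standard error 0.31). The median of the 12 was 0.04, against -0.02 over all miRNAs. Of the 12, 4 are also markers of a tissue, miR-124-3p and miR-138-5p for brain and miR-143-3p and miR-214-3p for mesenchyme.

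Marker miRNAs of other tissues also differed between the libraries. Over all miRNAs tested, 3.21% passed as higher in males and 5.27% as lower. A list of 6 brain miRNAs summed to 226180 to 267295 CPM in females and 180377 to 208861 CPM in males, with 3 lower in males and none higher, so the labelled tissue was present in every library. Skeletal muscle markers summed to 391.6 to 1190.8 CPM in females and 5525.6 to 6154.5 CPM in males, with 5 of 7 higher in males and miR-208a-3p and miR-208b-3p at 0 throughout. Epithelial markers summed to 730.0 to 1545.2 CPM in females and 9181.4 to 9499.2 CPM in males, with 6 of 7 higher. Mesenchymal markers summed to 8310.1 to 16784.4 CPM in females and 22446.2 to 26300.3 CPM in males, with 4 of 6 higher and 0 passing as lower. In this list miR-143-3p ran the other way, at -0.61 on the log2 scale. It held 3756.8 to 6397.9 CPM in females and 3082.7 to 4024.6 CPM in males. The same miRNA is among the 5 profiles nearest to miR-29a-3p. Red blood cell markers summed to 646 to 1354 CPM in females and 1595 to 1972 CPM in males, with 1 of 3 passing as higher. Leukocyte markers summed to 287 to 476 CPM in females and 396 to 528 CPM in males, which overlap, and 0 of 6 passed in either direction. The part of these tissues and cells in the levels of miR-29 and miR-101 was not tested. In whole tissue, fewer cells of a type and less of a miRNA per cell cannot be told apart.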

How the data were processed

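The authors removed adaptors with cutadapt 1.15, mapped reads with Bowtie 1.2.1 to miRBase sequences and mm9, and counted known miRNAs in miRDeep2. The deposited values are raw read counts for 1915 mature miRNAs, without normalization. No pair of libraries had equal counts at more than 0.210% of miRNAs above 100 reads.

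Levels were computed as CPM of the library total. The sexes were compared with edgeR 4.0.16 in R 4.3.3 (TMM scaling, quasi-likelihood test for sex, at least 10 reads summed over the 6 libraries, Benjamini-Hochberg adjustment over 1120 miRNAs, threshold 0.05). A standard error is the size of the log2 fold change over the square root of the F statistic. Ratios had 0.5 reads added, and profiles a prior count of 2. P-values measure the spread between pools. The members and lists were chosen with earlier results of these data known. The rule for named miRNAs took the 9 arms, the 5 nearest profiles to miR-101a-3p and to miR-29a-3p, and the extremes of the Dnmt and Ezh2 list. Outside it, the 3 further arms of the families, the marker miRNAs at 0 and the miRNAs held by 2 lists were named after their values were seen.

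Alternatives were other scalings, filters, DESeq2 1.42.0, 1 RUVr factor, a replicate block, a GC offset (loess in each library, span 0.75, none where no sequence was matched) and each library left out.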

Additional observations from a re-analysis of the deposited data

How the results depend on the processing

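Of the 9 arms, 2 passed the threshold in the reported fit, and 2 did under library size scaling, upper quartile scaling, DESeq2, either filter, the replicate block, the GC offset and both together. It was 4 with DESeq2 and 1 RUVr factor, 3 with edgeR and that factor, and 1 to 4 over the fits that left out a library, with 1 without male library 1 and 4 without female library 2. Over all miRNAs, the 95 became 216 with DESeq2 and 1 RUVr factor, 189 with edgeR and that factor, and 30 to 203 with a library left out, with 30 without male library 1, 60 without female library 3 and 203 without female library 2. The GC offset with female library 2 also left out, chosen after seeing the data, gave 156. The cause of these changes was not tested. Library size scaling moved the median log2 fold change of all miRNAs from -0.02 to 0.11 and the split of calls from 59 lower and 36 higher in males to 39 lower and 50 higher. With RUVr that median was 0.24 in DESeq2 and 0.22 in edgeR, and with the GC offset it was -0.19.

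The log2 fold change of miR-29c-5p lay between -0.65 and 0.11 with a library left out, reversing without female library 2. The log2 ratio of miR-29c-3p to miR-29c-5p lay between -0.045 and 0.66, reversing without female library 1 (-0.031) or 3 (-0.045). The difference between the family ratios stayed between -0.97 and -0.74 under all alternatives run on it.

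Replicate numbers are shared by the sexes, and the labels do not say whether they pair the samples. Deviations of same-numbered libraries correlated at -0.10, 0.03 and 0.16 across 553 miRNAs. Those of differently numbered libraries correlated at -0.19 to 0.17, so with 3 libraries per sex these values cannot settle pairing. With the replicate block, 92 miRNAs and 2 of the 9 arms passed. Depth limits the passenger arms and miR-29b-3p, whose counts lie at or near 0 in several libraries.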
